A study of Mus musculus with 12 samples.

Results

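The NR4A and EGR activation factors are 6 listed genes, Nr4a1, Nr4a2, Nr4a3, Egr1, Egr2 and Egr3, taken by mouse symbol and Ensembl identifier from the 29522 genes of the deposited tables. All 6 were measured in every library and all 6 passed the filter on low values. RNA came from T helper 17 (Th17) cells, which make interleukin-17. The starting cells were naive CD4+ T cells of C57BL/6J spleens (genotype WT), isolated magnetically, activated with a CD3/CD28 cocktail and kept in medium with the supplement CytoBox Th17. The 4 groups had 3 biological replicates each: vehicle, ILA at 200 uM, GSK805 at 0.5 uM, and GSK805+ILA at the same doses. ILA is taken to stand for indole-3-lactic acid, a tryptophan product of bacteria. The other compound, GSK805, is a synthetic small molecule. All groups share the activation and the Th17 medium. The labels name no animals, so each p-value reflects the spread among these libraries, which may be technical in part. The sources used here do not give the length of culture or the time from dosing to harvest.

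NR4A proteins are orphan nuclear receptors and EGR proteins are zinc finger transcription factors. Both families are immediate early genes of T cells: signals from the T cell receptor switch them on within minutes to hours through calcium and calcineurin, through RAS and ERK, and through CREB, MEF2 and SRF with its ELK partners. Nr4a1 encodes Nur77, widely used as a reporter of receptor signalling, Nr4a2 encodes Nurr1 and Nr4a3 encodes NOR1. NR4A factors are known for restraining T cells and for a role in exhaustion and in regulatory T cells. Egr1 is the classic target of ERK and SRF, while Egr2 and Egr3 are linked to T cell tolerance and are held in check, like Egr1, by the NAB corepressors.

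Promoter sequences are shown so that the letters before start sites of these genes can be read beside the way each gene moved. RefSeq start sites on GRCm38.p6 were matched for 4 of the 6 members, and the 250 bases before each start were read. Capitals mark TGACG on either strand (CGTCA where it is read from the other strand), the core of the cAMP response element bound by CREB, and in Egr2 also a CArG box, the element bound by SRF. For Nr4a3 only the 98 bases before the first annotated exon are printed, and for Egr2, which has 5 listed start sites, the stretch before the third, the last of them whose 250 bases hold no annotated exon. The Nr4a1 and Egr2 stretches lie inside the annotated genes, before internal start sites. The bases before the outermost annotated start of Nr4a1 were not read. Strand and position stand before each sequence.
Nr4a1, + strand, chr15:101266596-101266845: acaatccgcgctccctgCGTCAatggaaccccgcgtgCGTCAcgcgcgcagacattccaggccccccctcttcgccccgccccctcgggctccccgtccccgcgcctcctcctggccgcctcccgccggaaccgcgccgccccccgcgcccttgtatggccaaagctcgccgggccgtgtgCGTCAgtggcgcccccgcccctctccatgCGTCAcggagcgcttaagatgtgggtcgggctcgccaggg
Nr4a2, - strand, chr2:57124004-57124253: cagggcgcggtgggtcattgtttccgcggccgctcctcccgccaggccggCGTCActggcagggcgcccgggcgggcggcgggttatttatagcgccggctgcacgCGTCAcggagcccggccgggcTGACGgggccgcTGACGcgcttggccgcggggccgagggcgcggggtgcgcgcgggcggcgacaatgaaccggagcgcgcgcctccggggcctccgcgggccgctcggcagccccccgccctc
Nr4a3, + strand, chr4:48045055-48045152: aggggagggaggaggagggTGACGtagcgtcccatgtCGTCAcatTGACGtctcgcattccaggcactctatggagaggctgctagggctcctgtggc
Egr2, + strand, chr10:67537619-67537868: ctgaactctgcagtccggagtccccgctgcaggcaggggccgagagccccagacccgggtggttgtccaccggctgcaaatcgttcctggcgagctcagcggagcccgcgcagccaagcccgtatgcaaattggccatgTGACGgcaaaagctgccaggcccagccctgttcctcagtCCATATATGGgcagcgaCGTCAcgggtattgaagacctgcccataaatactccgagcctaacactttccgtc

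Nr4a1, Nr4a2 and Nr4a3 each held 4 matches to TGACG within the 250 bases, of which 3 lie in the stretch printed for Nr4a3. At least 1 match was found in 17.8% of the 32851 RefSeq promoter windows of this length, and 4 or more in 0.137%. The Egr2 stretch held 2 such matches, with 2 or more in 3.9% of windows, and a CArG box, present in 1.47% of windows. The stretches before the first and second Egr2 starts held no TGACG, that before the second held a CArG box and 3 matches to GGAAA, and those before the last starts, which overlap the printed one, held the same 2 matches to TGACG and the CArG box. The full element TGACGTCA, which contains the shorter core, was in none of these stretches and in 1.55% of all windows. GCGTG, the core bound by the aryl hydrocarbon receptor that senses indoles, occurred 2 times in Nr4a1, 1 time each in Nr4a2 and Nr4a3 and not in the Egr2 stretch, against 28.2% of windows with at least 1. The match in Nr4a3 lies outside the stretch printed for that gene. AGGTCA, a core shared by sites of many nuclear receptors, was in none of these stretches and in 14.0% of windows. The NR4A site AAAGGTCA, which contains AGGTCA, and the EGR site GCGTGGGCG, which contains GCGTG, were also in none, against 1.34% and 0.536% of windows. GGAAA, the core bound by NFAT factors, was in Nr4a2 and Egr2, 1 time each, and in 55.6% of windows. Every motif was searched on both strands, and a match describes letters only.

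In GRCm38, Nr4a1 (ENSMUSG00000023034) lies on chromosome 15 from 101254269 to 101274795, Nr4a2 (ENSMUSG00000026826) on chromosome 2 from 57106830 to 57124003, and Nr4a3 (ENSMUSG00000028341) on chromosome 4 from 48045153 to 48086447. Egr1 (ENSMUSG00000038418) lies on chromosome 18 from 34859823 to 34864984, Egr2 (ENSMUSG00000037868) on chromosome 10 from 67535475 to 67542188, and Egr3 (ENSMUSG00000033730) on chromosome 14 from 70077203 to 70082614. All are protein-coding, and none overlaps another gene annotated in GENCODE vM21 on either strand.

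Values are FPKM, read counts scaled for gene length and library size. Whole reads recovered from them gave 17.84 to 23.49 M per library, and the members were covered by 380 (Egr3) to 19405 (Nr4a1) reads. The CD4 T cell marker Cd4 lay between 38.9 and 121 FPKM in all libraries. Of the CD8 chain genes, Cd8a did not pass 0.298 FPKM, while Cd8b1 lay between 0.983 and 5 FPKM. Summed markers of CD8 T and NK cells ran from 34.5 to 37.8 FPKM with ILA against 21.4 to 25.2 with vehicle, 15.5 to 18.9 with GSK805 and 20.2 to 21.8 with both, mostly Klrd1, and 3 of the 4 measured reached 1 FPKM. Those of myeloid cells ran from 10.8 to 12.5 with ILA, 7.13 to 8.92 with vehicle, 7.13 to 7.66 with GSK805 and 9.96 to 12.7 with both, and 2 of 6 reached 1 FPKM (Cd68 and Csf1r), with Lyz2 and Adgre1 at 0 in 4 libraries each. The 3 stromal markers summed to 10.1 to 11.4 with ILA, 4.13 to 4.73 with vehicle, 3.45 to 3.61 with GSK805 and 6.5 to 7.3 with both, nearly all from Pecam1, while Cdh5 was at 0 in 11 libraries. ILA replicate 2 was the only library with globin RNA above 1 FPKM, with Hba-a1 at 18.2 and Hbb-bs at 23.3 FPKM. The part of these signals in the results below was not tested. Gamma delta T cell markers did not sum to more than 1.26 FPKM in any library.

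Among vehicle cells the members spanned a wide range of levels. Nr4a1 stood at 219 ± 21 FPKM (SD, n = 3, as for all such values), above 98.7% of the 13511 tested genes, followed by Egr1 at 120 ± 11.4 FPKM and Nr4a3 at 98.4 ± 6.61 FPKM. Nr4a2 at 31 ± 4.12 FPKM and Egr2 at 27.7 ± 0.848 FPKM lay close to each other, and their libraries overlapped. Egr3 was the lowest at 5.83 ± 0.475 FPKM, above 46.7% of tested genes. FPKM are scaled by length, here close to the summed annotated exons of a gene, whichever transcript is expressed. Levels of different genes can therefore be set side by side only roughly.

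**Figure D1:**
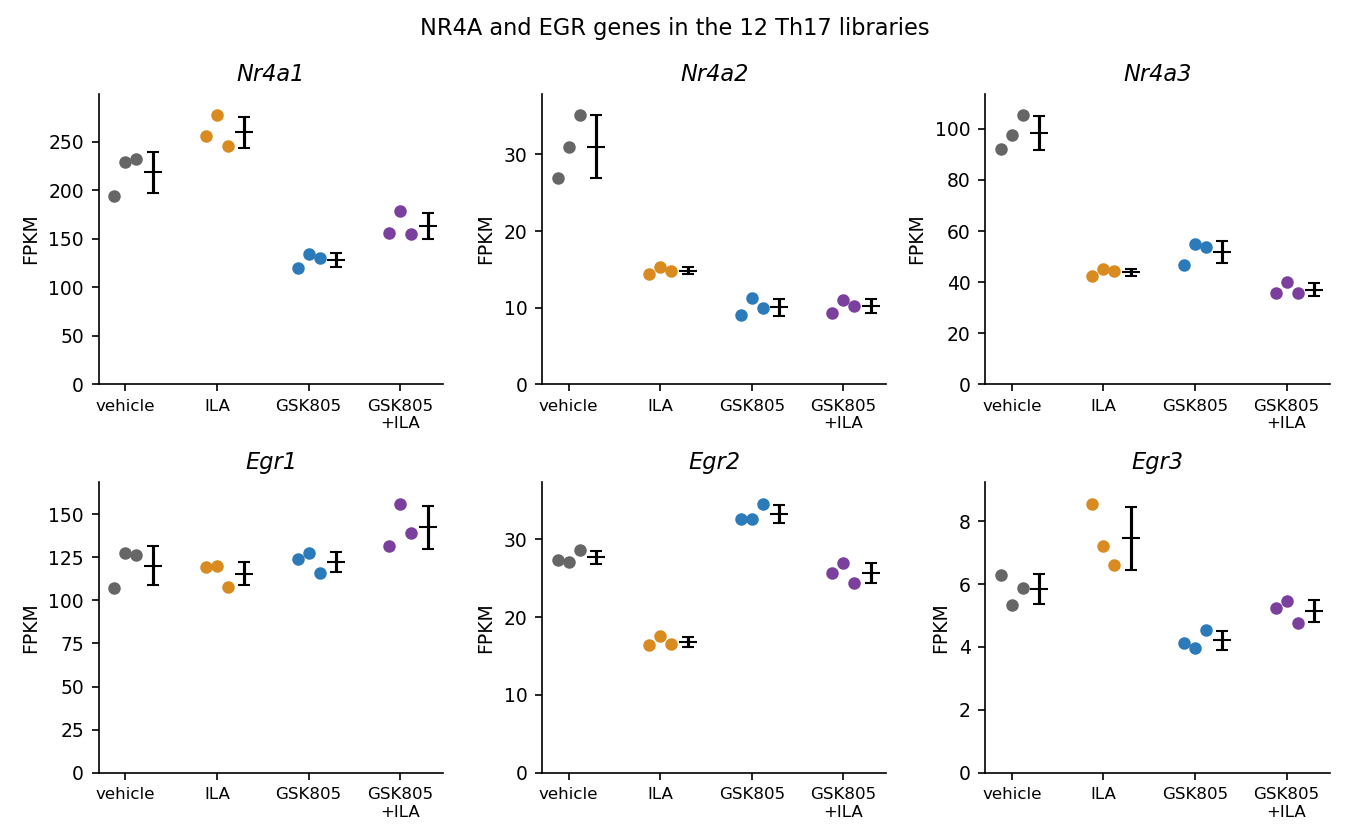
FPKM (y axes, each from 0) of the 6 members in vehicle, ILA, GSK805 and GSK805+ILA. Each point is 1 library, and the black bar beside it is the mean ± SD of 3. Nr4a2 and Nr4a3 fell from vehicle in all 3 treated groups, Nr4a1 and Egr3 were highest with ILA and lowest with GSK805, and Egr2 was lowest with ILA and highest with GSK805.

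ILA split the members. Nr4a2, Nr4a3 and Egr2 fell, Nr4a1 and Egr3 rose by small amounts, and Egr1 did not pass. That makes 5 of 6 called at a limma adjusted p below 0.05, against 57.9% of all tested genes. The 2 that rose stand beside 33.9% of genes called higher and the 3 that fell beside 24% called lower. The libraries of 5 of 6 did not overlap with vehicle, against 62.8% of all genes, so the number called is not by itself a result about these genes. Changes are given as differences of log2(FPKM + 1) and folds on the same scale, where added 1 FPKM makes a weakly expressed gene appear to change less than it did. In bulk RNA fewer cells that express a gene and less RNA per cell cannot be told apart.

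Nr4a3 measured 92.3, 97.7 and 105 FPKM in the vehicle libraries and 42.2, 45.1 and 44.2 FPKM with ILA. Every ILA library was under 50% of the vehicle mean, and the fall was 2.22-fold (log2 change -1.15, SE 0.07, adjusted p = 1.05e-07). Nr4a2 measured 26.9, 31 and 35.1 FPKM with vehicle and 14.4, 15.3 and 14.8 FPKM with ILA, which varied far less among themselves than the vehicle libraries did. The fall of Nr4a2 was 2.01-fold (log2 change -1.01, SE 0.10, adjusted p = 4.45e-06). Egr2 went from 27.4, 27 and 28.6 FPKM to 16.4, 17.5 and 16.5 FPKM, 1.61-fold lower (log2 change -0.69, SE 0.05, adjusted p = 2.51e-07). These 3 calls held under every alternative that was run.

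Nr4a1 went the other way with ILA, at 256, 278 and 245 FPKM against 194, 229 and 232 FPKM with vehicle, with no overlap between the groups. The rise was 1.19-fold (log2 change 0.25, SE 0.08, adjusted p = 0.0196). The call was lost with median centring, which sets the median gene equal in all libraries (adjusted p = 0.262), without vehicle replicate 1 (0.0768) and without ILA replicate 2 (0.0766), and the alternatives ran from 0.002 to 0.262. Egr3 measured 8.56, 7.2 and 6.59 FPKM with ILA against 6.28, 5.33 and 5.89 FPKM with vehicle, 1.23-fold higher (adjusted p = 0.013). Its lowest ILA library stood just above its highest vehicle library, and the call was lost with quantile normalization (adjusted p = 0.179), with median centring (0.123), without vehicle replicate 2 (0.0534) and without ILA replicate 1 (0.0548), with alternatives from 0.0014 to 0.179. Egr1 overlapped between the groups, at 119, 120 and 108 FPKM with ILA and 107, 127 and 126 FPKM with vehicle (log2 change -0.05, SE 0.08, adjusted p = 0.597).

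GSK805 lowered all 3 NR4A genes, lowered Egr3 and raised Egr2, again without a call for Egr1. It called 5 of 6 members against 22.8% of all tested genes, 1 higher (15.7% of genes) and 4 lower (7.08% of genes). For 5 of 6 the libraries did not overlap with vehicle, against 38.7% of genes. Nr4a2 fell most, to 9.02, 11.2 and 9.9 FPKM, 2.89-fold below vehicle (log2 change -1.53, SE 0.10, adjusted p = 6.28e-06). Nr4a3 fell to 46.9, 54.9 and 53.6 FPKM, 1.89-fold lower (adjusted p = 1.32e-05). Nr4a1 fell to 120, 134 and 130 FPKM, 1.7-fold lower (log2 change -0.76, SE 0.08, adjusted p = 1.06e-04). The highest GSK805 library of each NR4A gene lay well below its lowest vehicle library.

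Among the EGR genes, Egr2 rose with GSK805 to 32.6, 32.6 and 34.6 FPKM, 1.2-fold above vehicle (log2 change 0.26, SE 0.05, adjusted p = 0.00272). Egr3 fell to 4.12, 3.97 and 4.53 FPKM, 1.31-fold lower (log2 change -0.39, SE 0.09, adjusted p = 0.00976). Egr1 measured 124, 127 and 116 FPKM, within the range of the vehicle libraries (log2 change 0.03, SE 0.08, adjusted p = 0.826), and the sign of this value changed with median centring and without vehicle replicate 1. All 5 calls with GSK805 held under every alternative that was run.

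**Figure D2:**
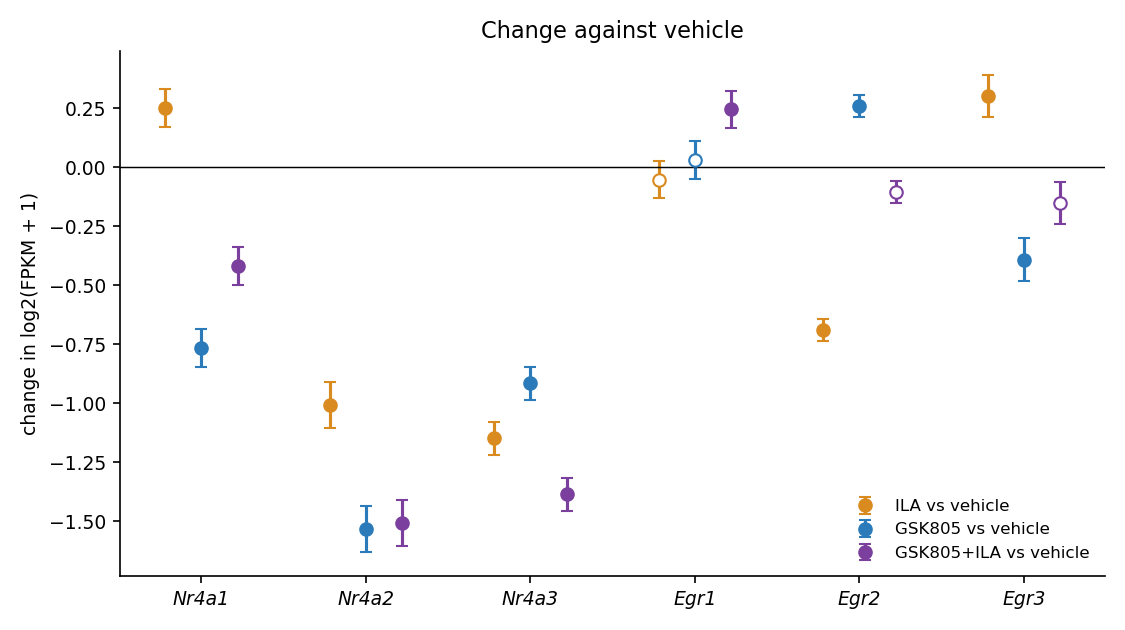
Change in log2(FPKM + 1) against vehicle (y axis) of each member with ILA, GSK805 and both, with bars of 1 SE. Filled points passed an adjusted p of 0.05: Nr4a1, Egr2 and Egr3 lie on opposite sides of 0 for ILA and GSK805.

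The comparisons of ILA and of GSK805 with vehicle share their vehicle libraries, so the compounds were also compared directly. Between ILA and GSK805 5 of 6 members were called, against 52.5% of tested genes, 3 higher with ILA (27.1% of genes) and 2 lower (25.4%). The same 5 did not overlap, against 60.3% of genes. Nr4a1 was 2.02-fold higher with ILA than with GSK805 (log2 change 1.01, SE 0.08, adjusted p = 1.42e-06), Egr3 was 1.62-fold higher (adjusted p = 5.96e-05) and Nr4a2 1.44-fold higher (adjusted p = 8.00e-04). Egr2 was 1.93-fold lower with ILA (log2 change -0.95, SE 0.05, adjusted p = 4.12e-08). Nr4a3 was 1.18-fold lower (adjusted p = 0.0147), a call lost without ILA replicate 1 (0.0532), GSK805 replicate 2 (0.0617) or GSK805 replicate 3 (0.0538), with alternatives from 0.00129 to 0.0617. For Egr1 the log2 difference was -0.08 (SE 0.08, adjusted p = 0.408).

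Both compounds together gave the lowest Nr4a3 and the highest Egr1 of the 4 groups. Against vehicle 4 of 6 members were called, beside 52.1% of tested genes, 1 higher (31.8% of genes) and 3 lower (20.3%), and 5 of 6 did not overlap, beside 59.2%. Nr4a3 measured 35.7, 40 and 35.5 FPKM, 2.61-fold below vehicle (log2 change -1.39, SE 0.07, adjusted p = 4.03e-08), and Nr4a2 9.31, 11 and 10.3 FPKM, 2.84-fold below (adjusted p = 2.31e-07). Nr4a1 measured 156, 178 and 155 FPKM, 1.34-fold below vehicle (adjusted p = 0.00107), between its levels with GSK805 and with vehicle.

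Egr1 measured 132, 156 and 139 FPKM with both compounds, each above the highest vehicle library, and was 1.18-fold higher (log2 change 0.24, SE 0.08, adjusted p = 0.0227). This call was lost with median centring (adjusted p = 0.297), without the filter on low values (0.0577), in a fit of just the groups compared (0.0553), without vehicle replicate 1 (0.0866) and without GSK805+ILA replicate 2 (0.0933), and the alternatives ran from 0.00904 to 0.297. Egr2 stood at 25.7, 27 and 24.4 FPKM, just below the lowest vehicle library, and did not pass (log2 change -0.11, SE 0.05, adjusted p = 0.079), but did with median centring (0.0011) and without GSK805+ILA replicate 2 (0.04), with alternatives up to 0.265. Egr3 overlapped with vehicle at 5.23, 5.45 and 4.77 FPKM (log2 change -0.15, SE 0.09, adjusted p = 0.18), and passed with quantile normalization (0.0131) and median centring (0.0158), with alternatives up to 0.413.

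Adding ILA to GSK805 called 3 of 6 members, against 39.5% of tested genes, 1 higher (22% of genes) and 2 lower (17.5%), while 5 of 6 did not overlap, against 52.1% of genes. Nr4a1 rose 1.27-fold over GSK805 alone (log2 change 0.34, SE 0.08, adjusted p = 0.00549), Nr4a3 fell 1.39-fold (adjusted p = 2.83e-04) and Egr2 fell 1.29-fold (adjusted p = 1.05e-04). Nr4a2 overlapped between the groups (log2 change 0.02, SE 0.10, adjusted p = 0.869). Egr1 and Egr3 were higher by 0.21 and 0.24 on the log2 scale and did not pass (adjusted p = 0.051 and 0.0527). Each passed under some alternatives, with Egr1 ranging from 0.0299 to 0.188 and Egr3 from 0.026 to 0.213.

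Adding GSK805 to ILA called all 6 members, against 18.6% of tested genes, 2 higher (9.92% of genes) and 4 lower (8.64%). None of the 6 overlapped between the groups, against 37.2% of genes without overlap. Among the GSK805+ILA libraries, each of the 6 was highest in replicate 2. The members therefore need not vary independently, and their counts, here and in the other comparisons, are not separate results. Nr4a1 was 1.59-fold lower than with ILA alone (adjusted p = 3.39e-04), Nr4a2 1.42-fold lower (0.00507) and Egr3 1.37-fold lower (0.00567), while Egr2 was 1.5-fold higher (3.48e-05), with limma. The calls of Nr4a3, 1.18-fold lower (adjusted p = 0.0357), and Egr1, 1.23-fold higher (0.0243), were the least stable. Nr4a3 lost its call when any of ILA replicates 1 to 3 or GSK805+ILA replicate 1 or 3 was left out, with no filter and without trend and robust moderation (alternatives from 0.00453 to 0.117). Egr1 lost it without ILA replicate 3, without GSK805+ILA replicate 2 or 3 and with no filter (alternatives from 0.0156 to 0.082).

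The effect of ILA differed with and without GSK805 for Nr4a2, Nr4a3 and Egr2, which is 3 of 6 members against 13.8% of tested genes. All 3 differences were positive, beside 5.15% of genes called positive and 8.7% called negative. Nr4a2 fell by 1.01 with ILA alone and moved by 0.02 when GSK805 was present, a difference of 1.03 (SE 0.14, adjusted p = 0.00161). Had the folds of the 2 compounds multiplied, Nr4a2 would have stood at 4.47 FPKM with both, and the geometric mean measured was 10.2 FPKM. For Nr4a3 the difference was 0.68 (SE 0.10, adjusted p = 0.00216), with 37 FPKM measured beside 22.8 FPKM from multiplied folds. For Egr2 it was 0.33 (SE 0.07, adjusted p = 0.00972), with 25.7 FPKM beside 20.3 FPKM.

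Nr4a1, Egr3 and Egr1 did not pass the test of the interaction. Nr4a1 measured 163 FPKM with both compounds where multiplied folds give 152 FPKM (difference 0.10, SE 0.11, adjusted p = 0.618). Egr3 measured 5.14 FPKM beside 5.41 FPKM (difference -0.06, SE 0.13, adjusted p = 0.786), and Egr1 142 FPKM beside 117.9 FPKM (difference 0.27, SE 0.11, adjusted p = 0.138). Egr1 passed without vehicle replicate 1 (0.0413), with alternatives up to 0.297.

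**Figure D3:**
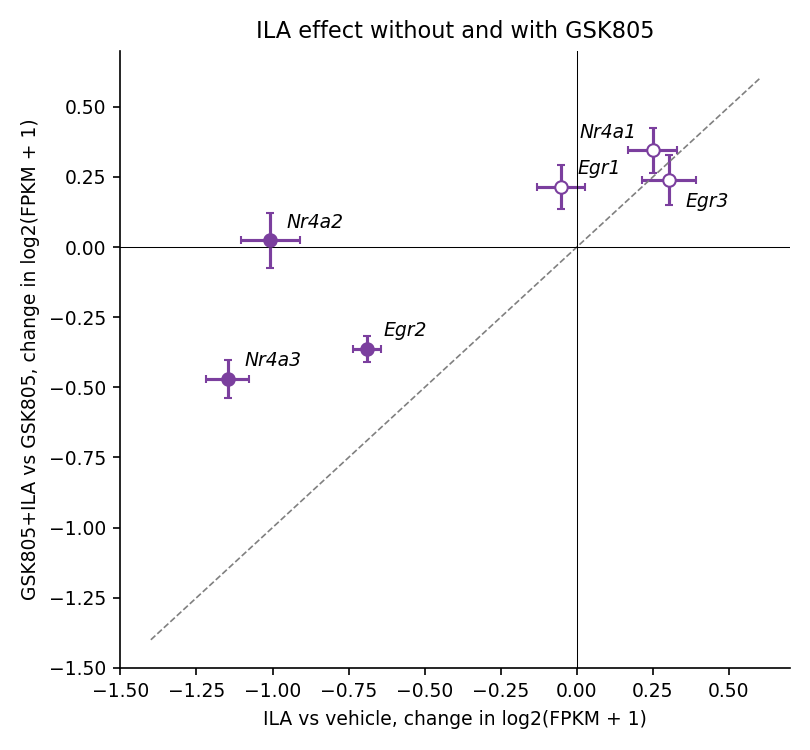
Change with ILA in log2(FPKM + 1) without GSK805 (x axis) and in its presence (y axis), with bars of 1 SE and a dashed line of equal change. Filled points, Nr4a2, Nr4a3 and Egr2, passed the test of the difference and lie above the line, where ILA lowered them less or not at all beside GSK805.

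The order of the groups therefore differed by gene. Nr4a1 ran from ILA through vehicle and GSK805+ILA to GSK805 with no overlap between neighbours. Egr3 had the same order, with vehicle and GSK805+ILA overlapping. Nr4a2 ran from vehicle through ILA to GSK805+ILA and GSK805, which overlapped, and Nr4a3 from vehicle through GSK805 and ILA to GSK805+ILA without overlap. Egr2 ran from GSK805 through vehicle and GSK805+ILA to ILA, and its vehicle and GSK805+ILA libraries, although apart, did not differ by the test. For Egr1 only GSK805+ILA stood apart, and the other groups overlapped. Some of these steps lost their calls under some alternatives. These are ILA over vehicle for Nr4a1 and Egr3, and GSK805 over ILA and ILA over GSK805+ILA for Nr4a3. The same holds for GSK805+ILA over vehicle and over ILA for Egr1. For Egr1 and Egr3, GSK805+ILA over GSK805 did not pass.

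Within the NR4A family the balance moved towards Nr4a1 with ILA. Its share of the summed FPKM of the 3 genes was 62%, 64% and 62.3% in the vehicle libraries and 81.9%, 82.1% and 80.6% with ILA. Nr4a3 took 13.8% ± 0.64 with ILA and 28.3% ± 1.06 with vehicle, and Nr4a2 4.67% ± 0.185 and 8.89% ± 0.467. The summed level was 318 ± 17.5 FPKM with ILA and 348 ± 30.8 FPKM with vehicle and the libraries overlapped. With GSK805 the total was 190 ± 12.6 FPKM while Nr4a1 held 67.5% ± 0.658, and with both compounds 210 ± 16.6 FPKM with Nr4a1 at 77.5% ± 0.288.

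In the EGR family Egr1 dominated every library, with 74.8% to 82.9% of the summed FPKM. Egr2 took 18.1% ± 1.28 with vehicle, 12% ± 0.637 with ILA, 20.8% ± 1.28 with GSK805 and 14.9% ± 0.822 with both. Egr3 took 3.82% ± 0.579 with vehicle and 5.32% ± 0.539 with ILA. It took 2.64% ± 0.256 with GSK805 and 2.98% ± 0.205 with both. The shares in both families set the FPKM of different genes side by side, which is rough. They describe the libraries and were not tested.

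**Figure D4:**
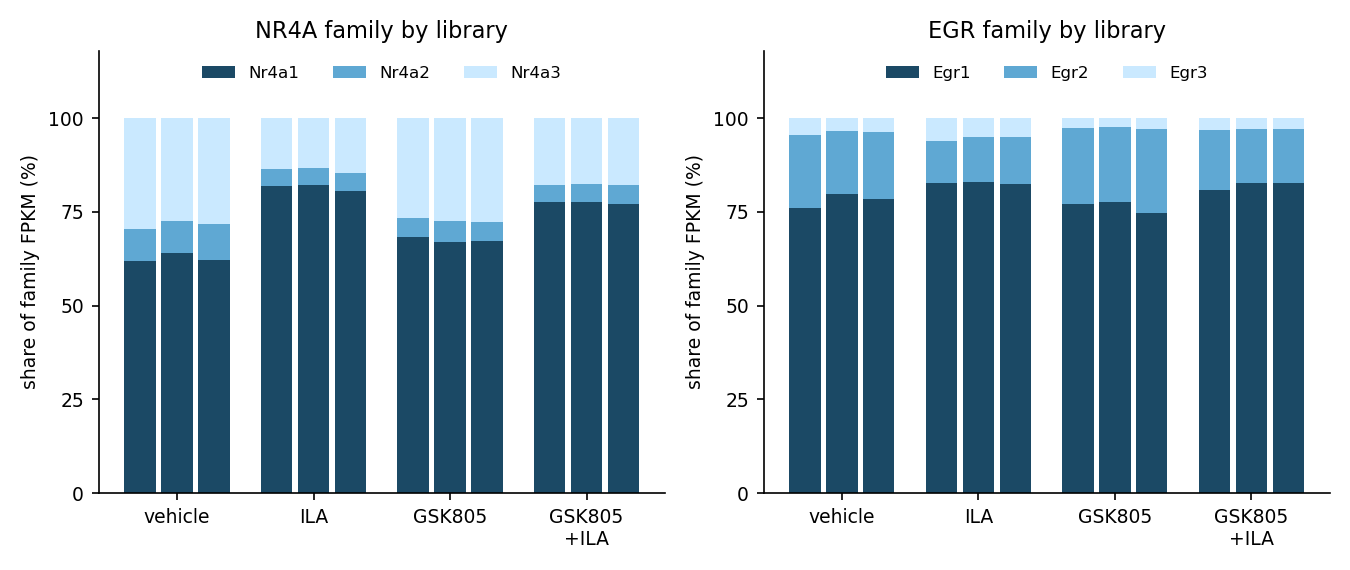
Share of each family's summed FPKM (y axis, percent) taken by each gene, 1 bar per library, grouped by treatment. Nr4a1 takes 80.6% to 82.1% of the NR4A sum with ILA, and 62% to 64% with vehicle.

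Likeness between members was measured over the 12 libraries as the root mean square difference in log2(FPKM + 1), each gene centred on its own mean, as a description. The closest pair crossed the families: Nr4a1 and Egr3 differed by 0.20. Nr4a2 and Nr4a3 followed at 0.29, while Nr4a1 was 0.49 from Nr4a2 and 0.58 from Nr4a3. Egr2 and Egr3 were 0.59 apart. The largest distance, 0.75, was between Nr4a2 and Egr2.

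The genes nearest to each member were sought among 8118 tested genes that reached 5 FPKM in a group. Nearest to Egr2 was Cd69, an early activation marker that retains T cells in tissue, at a difference of 0.06. Cd69 averaged 97.7 FPKM with vehicle, 61.2 with ILA, 116 with GSK805 and 91.7 with both. Cflar, an inhibitor of death receptor signalling, and Elmo1, which acts in cell movement, came next at 0.07 and 0.08.

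Nearest to Nr4a1 was Fosl2, an AP-1 subunit, at 0.11, with 40 FPKM with vehicle, 49.2 with ILA, 22.7 with GSK805 and 26.7 with both. Atp6v0d2, a subunit of the vacuolar proton pump, and the receptor gene Gpr171 followed at 0.13 and 0.14. Areg, which encodes the growth factor amphiregulin, was nearest to Nr4a2 at 0.15, with 30.8 FPKM with vehicle, 12.5 with ILA, 10.9 with GSK805 and 8.91 with both. The small GTPase gene Gem (0.21) and Sdcbp2 (0.24) came after it.

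Nr4a3 lay nearest to Cdkn1a, the cell cycle inhibitor p21, at 0.14, then to Ccdc71l and to the prion protein gene Prnp at 0.15 and 0.16. Egr3 lay nearest to D16Ertd472e, to Hif1a, the hypoxia factor, and to Arrdc3, at 0.11, 0.11 and 0.12. Egr1 changed little, so its nearest genes, Ufl1, Cdk2ap2 and Anxa5 at 0.08 each, are genes that also changed little. The libraries of a group share their treatment, so these differences mostly compare 4 group means.

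Counts for lists of pathway genes stand beside the shares of all tested genes: 33.9% called higher and 24% lower with ILA, 15.7% and 7.08% with GSK805, 31.8% and 20.3% with both, and 22% and 17.5% when ILA was added to GSK805. The medians over all tested genes were 0.06, 0.05, 0.06 and 0.02 on the log2 scale. Most called genes listed for the calcium pathway that leads to NR4A and EGR rose. The list includes calcineurin regulators such as Rcan3, and whether signalling through the pathway changed was not tested. Of 17 calcium, calcineurin and NFAT genes, 12 rose and 2 fell with ILA (median log2 change 0.33, beside 0.06 over all tested genes), 8 rose and none fell with GSK805 (median 0.21 beside 0.05) and 13 rose and 1 fell with both (median 0.36 beside 0.06). Plcg1, the phospholipase that starts the calcium signal, rose 2.37-fold with ILA, 1.4-fold with GSK805 and 2.28-fold with both (limma adjusted p = 2.86e-09, 3.98e-05 and 5.82e-09). ILA also raised Stim1, the calcium sensor of the endoplasmic reticulum, 1.99-fold, and Ppp3cc, a calcineurin subunit, 1.84-fold. Nfatc2, the transcription factor NFAT1, rose 1.65-fold with ILA, 1.51-fold with GSK805 and 1.88-fold with both. Rcan3 rose 1.7-fold with ILA, 1.44-fold with GSK805 and 1.82-fold with both. When ILA was added to GSK805, 10 of 17 rose and 2 fell, and Plcg1 (1.62-fold), Ppp3cc (1.51-fold) and Stim1 (1.39-fold) were among those that rose.

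Of 16 genes of RAS, ERK, SRF and CREB, 6 rose and 2 fell with ILA, 5 rose and 1 fell with GSK805, and 7 rose and 1 fell with both. The medians were 0.13, 0.13 and 0.05. The share that rose with ILA was close to that over all genes, and the median with both was below the all-gene median. Mapk3, which encodes ERK1, rose 2.37-fold with ILA and 1.96-fold with both. Elk3, a partner of SRF, rose 1.56-fold and 1.35-fold, and Rasgrp1, which activates RAS, 1.41-fold and 1.53-fold. With GSK805 Rasgrp1 rose 1.23-fold, Creb1 1.18-fold and Map2k2, a kinase above ERK, 1.13-fold. With ILA added to GSK805 4 of 16 rose and 3 fell, and Mapk3 rose 1.73-fold, Elk3 1.28-fold and Rasgrp1 1.246-fold.

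Feedback genes of these pathways moved in both directions. Of 13, 4 rose and 8 fell with ILA (median -0.46), 2 rose and 3 fell with GSK805 (median -0.13), and 4 rose and 6 fell with both (median -0.16). Spry1, an inhibitor of RAS and ERK signalling, went from 33.1 ± 1.12 FPKM with vehicle to 9.14 ± 2.12 FPKM with ILA, 3.42-fold lower, and was 2.35-fold lower with both. Dusp10, listed here although it is a phosphatase of stress kinases, fell 2.59-fold with ILA, 1.41-fold with GSK805 and 2.68-fold with both. Dusp6, the phosphatase of ERK, rose in all 3, by 2.35-fold, 1.77-fold and 2.94-fold. With ILA added to GSK805 3 of 13 rose and 7 fell, with Spry1 2.05-fold and Dusp10 1.89-fold lower and Nab1 1.88-fold higher. Nab2, a corepressor of EGR proteins, was 1.38-fold lower with GSK805 but 1.94-fold higher with ILA, 1.23-fold higher with both against vehicle and 1.71-fold higher with both against GSK805. The other corepressor gene, Nab1, was 2.27-fold higher with ILA and 1.68-fold higher with both against vehicle, and did not pass with GSK805 (log2 change -0.16, limma adjusted p = 0.0614). Except for Nab2 with GSK805, these values of Nab1 and Nab2 lie outside the naming rule and were chosen after they were seen. The same holds for the values of Dusp1, Dusp2, Dusp4 and Dusp5.

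Among 25 other immediate early genes, 5 rose and 13 fell with ILA (median -0.36), 1 rose and 9 fell with GSK805 (median -0.18), and 4 rose and 15 fell with both (median -0.47). Ier3 and Nfil3, a survival factor and a repressor, fell 3.4-fold and 2.74-fold with ILA and 2.78-fold and 3.09-fold with both. Npas4, an activity-dependent factor, rose 7.46-fold with ILA, from 0.316 ± 0.0607 FPKM to 8.89 ± 1.53 FPKM, and 6.88-fold with both. With GSK805 the AP-1 gene Fosb fell 2.05-fold, Klf4 1.88-fold and the stress factor Atf3 1.8-fold. These genes also fell with ILA, by 1.85-fold, 1.75-fold and 1.7-fold, and with both, by 1.95-fold, 2.32-fold and 2.69-fold. Adding ILA to GSK805 raised 6 of 25 and lowered 9, with Npas4 5.26-fold higher, Ier3 2.43-fold lower and Nfil3 1.82-fold lower.

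**Figure D5:**
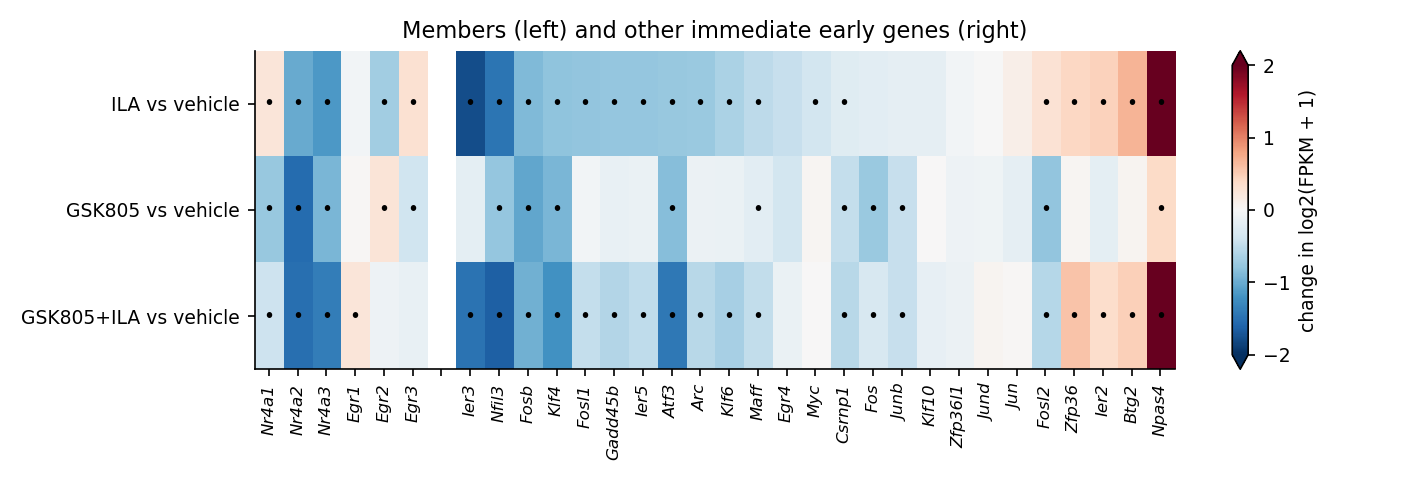
Change in log2(FPKM + 1) against vehicle (colour, ending at -2 and 2) of the 6 members and of 25 other immediate early genes, in 3 comparisons (rows). Dots mark an adjusted p below 0.05, and Npas4 lies beyond the end of the scale with ILA (2.9) and with both (2.78).

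Genes known as EGR targets in T cells also split. This list and the NR4A list that follows set no expected direction for a gene, so their counts do not measure the activity of either family. Of the 13 tested among 15 listed, 6 rose and 6 fell with ILA (median 0.23), 3 rose and 4 fell with GSK805 (median -0.13), 6 rose and 6 fell with both (median -0.10), and 6 rose and 6 fell when ILA was added to GSK805 (median 0.09). Il2, the T cell growth factor, went from 611 ± 16.6 FPKM with vehicle to 138 ± 22.1 FPKM with ILA, 4.43-fold lower, and was 2.55-fold lower with both. Dgka, a kinase that dampens receptor signalling, rose 2.96-fold with ILA and 2.76-fold with both, and Ndrg1 fell 2.85-fold with ILA. Cdkn1a fell 1.76-fold with ILA, 1.63-fold with GSK805 and 2.37-fold with both. Nfatc1, which belongs to 2 of these lists, rose 1.34-fold with GSK805 and 1.24-fold with both and fell 1.1-fold with ILA. With ILA added to GSK805, Dgka rose 2.34-fold, Il2 fell 2.17-fold and the cytokine signal inhibitor Socs3 rose 2.1-fold.

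Of 16 NR4A partners and reported targets 12 were tested: 5 rose and 4 fell with ILA (median 0.12), 3 rose and 2 fell with GSK805 (median 0.06), 5 rose and 4 fell with both (median 0.12), and 3 rose and 4 fell when ILA was added to GSK805. The inhibitory receptor genes moved apart. Lag3 rose 2.54-fold with ILA, to 57.5 ± 2.71 FPKM, and 2.35-fold with both, whereas Havcr2, which encodes TIM-3, fell 3.38-fold and 2.22-fold. Tox2, a nuclear factor of exhausted and follicular T cells, rose 2.58-fold with ILA and 1.73-fold with both and fell 1.36-fold with GSK805. GSK805 also lowered Ctla4 1.84-fold, whereas Ctla4 rose 2.04-fold with ILA and 1.22-fold with both. The interleukin-2 receptor gene Il2ra rose 1.09-fold with GSK805 and fell 1.51-fold with ILA and 1.29-fold with both. Over GSK805 alone, both compounds raised Tox2 2.35-fold, Ctla4 2.24-fold and Lag3 2.19-fold.

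Of 12 surface genes of T cell activation 3 rose and 8 fell with ILA (median -0.47), 2 rose and 3 fell with GSK805 (median -0.07), and 3 rose and 7 fell with both (median -0.22). Cd40lg, the ligand by which T cells help B cells, fell 2.92-fold with ILA, 1.44-fold with GSK805 and 2.79-fold with both. Slamf1 fell 2.43-fold with ILA and 2.03-fold with both, while Tnfrsf18, which encodes GITR, rose 2.32-fold with ILA. Il2rb, a chain of the interleukin-2 receptor, fell 1.96-fold with ILA, 1.42-fold with GSK805 and 2.51-fold with both. Cd5, whose level follows receptor signal strength, rose 1.74-fold with ILA, 1.22-fold with GSK805 and 1.78-fold with both. With ILA added to GSK805 3 of 12 rose and 7 fell, with Cd40lg 1.94-fold and Il2rb 1.76-fold lower and Tnfrsf18 1.82-fold higher.

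The direction of small changes depends on how libraries are scaled. Centring each library on its median gene lowered every log2 change against vehicle by 0.135 with ILA, 0.078 with GSK805 and 0.137 with both, and relative to that shift the rises of Nr4a1 and Egr3 with ILA came to 0.11 and 0.17. Of the genes called with ILA 58.6% were higher, against 46.2% after quantile normalization and 40.9% after median centring. For GSK805 these shares were 68.9%, 55.9% and 40.3%, for both compounds against vehicle 61.1%, 47.8% and 40.2%, and for ILA added to GSK805 55.7%, 46.8% and 41.6%. The falls of Nr4a2 and Nr4a3 against vehicle and that of Egr2 with ILA kept their direction and call under each scaling.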

How the data were processed

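The authors deposited 1 table of FPKM values per library, per the file headers. The submitters' processing notes name FastQC 0.11.2, Bowtie and the build mm10. The sources used here do not give the Bowtie version, the counting program, the annotation or the use of strand. With GENCODE vM21 exon lengths, 98.6% to 98.8% of values above 0 came within 0.1 of whole reads.

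A filter kept the 13511 genes that averaged 1 FPKM or more in any group. limma 3.58.1 (R 4.3.3, trend and robust moderation) fitted 4 group means to log2(FPKM + 1) over the 12 libraries, and Benjamini-Hochberg adjustment ran over all genes of a comparison. Lists were only counted. The fit was tested on simulated data. Named for each list, in the comparisons with vehicle and of GSK805+ILA with GSK805, are up to 3 called genes of largest change without overlap that reached 5 FPKM in a group. Values of list genes given outside this rule were added after they were seen. A list gene not given for a comparison may still have been called in it. Also named are the 3 genes most like each member, leaving out pseudogenes and ribosomal protein, microRNA and snoRNA genes. The members and lists were chosen with earlier results of these data known.

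The alternatives changed the normalization (quantile, median centring), the filter (none, 5 FPKM), the pseudocount (0.1), the moderation, the groups fitted, the replicate block, or left out 1 library. Voom on recovered reads, which covered 96.8% of tested genes, was added after seeing the data. Some marker values are not reported here.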

Additional observations from a re-analysis of the deposited data

Results flagged for a closer look

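For 3 members the effect of ILA differed between cells with and without GSK805, by limma's test of the interaction (adjusted over all 13511 tested genes). In log2(FPKM + 1), the difference was 1.03 for Nr4a2 (adjusted p = 0.00161), 0.68 for Nr4a3 (adjusted p = 0.00216) and 0.33 for Egr2 (adjusted p = 0.00972). All 3 libraries of ILA lay below all 3 of vehicle for each of these genes. All 3 libraries of GSK805+ILA lay below all 3 of GSK805 for Nr4a3 and Egr2, but not for Nr4a2. The 3 calls held under each of the 20 alternatives run for the interaction, with adjusted p up to 0.00686, 0.0088 and 0.0273.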

How the results depend on the processing

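Of the 42 log2 changes of members, 27 kept their direction and side of the threshold under all of the 21 alternatives that apply to them, 11 crossed the threshold under at least 1, and no called change reversed. The other 4, never called, changed sign: Egr1 with GSK805 (-0.05 to 0.10), Nr4a2 with both against GSK805 (-0.04 to 0.10), and the interaction of Nr4a1 (-0.03 to 0.18) and Egr3 (-0.14 to 0.03). The cause of each change was not tested. Quantile normalization gave 0.15 for Egr3 with ILA (no longer called) and -0.32 for Egr3 with both against vehicle (now called). Median centring called 3 members with ILA: Nr4a1 at 0.11 and Egr3 at 0.17 were lost. Against vehicle it moved both compounds' Egr1 to 0.11 (lost), Egr2 to -0.24 and Egr3 to -0.29 (both now called). Among genes called for the interaction, 37.2% were positive, 46% after quantile normalization and 63.2% after median centring. Without a filter, 1067 genes were called for the interaction in place of 1871, and Egr1 with both against vehicle (0.24) and Nr4a3 (-0.24) and Egr1 (0.30) with both against ILA were lost. Without trend or robust moderation Nr4a3 with both against ILA (-0.24) was lost. With only the groups compared Egr1 with both against vehicle (0.24) was lost.

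With both against GSK805, Egr1 (0.21) and Egr3 (0.24) became called with the filter at 5 FPKM and with only the groups compared, and voom called them at 0.22 and 0.29, so that each called 5 members. A pseudocount of 0.1 called Egr3 (0.29). Same-numbered libraries deviated together with correlations of -0.0818 to 0.0785 in 18 pairs, none above 0.1, so the numbers are not taken to pair the samples. With the replicate number as a block, 7793 genes were called with ILA in place of 7818 and 1975 for the interaction in place of 1871, Egr1 with both against GSK805 (0.21) became called, and no other member's call changed.

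Leaving out each library in turn gave 0.17 to 0.30 for Nr4a1 and 0.21 to 0.38 for Egr3 with ILA. With both against vehicle it gave 0.16 to 0.30 for Egr1 and -0.14 to -0.069 for Egr2. With both against ILA it gave -0.29 to -0.21 for Nr4a3, 0.23 to 0.35 for Egr1 and 1596 (without GSK805+ILA replicate 3) to 2160 genes called in place of 2507. Between ILA and GSK805 it gave -0.30 to -0.19 for Nr4a3. With both against GSK805 it gave 0.15 to 0.27 for Egr1 and 0.21 to 0.29 for Egr3. For the interaction it gave 0.20 to 0.35 for Egr1 and 1195 to 1969 genes called, with 1229 without vehicle replicate 3, 1206 without GSK805 replicate 1 and 1195 without GSK805+ILA replicate 3. Egr3 had the fewest reads, from 380 per library, while Nr4a2 had the largest SE of the members between groups (0.10).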
